A study of Mus musculus with 6 samples.

Results

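The endoplasmic reticulum (ER) folds the proteins that a cell secretes or places in its membranes, and the genes described here make that machinery and the sensors that watch over it. The 32 genes were taken by name from a list: 13 chaperones and co-chaperones, 7 enzymes of disulfide bond formation, 8 factors of ER-associated degradation, and 4 genes of the stress sensors and Xbp1. They were found by the RefSeq accession of their probes, and all 32 were among the 20018 named genes of the array. All 32 were tested, and all were well above background on all 6 arrays.

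The livers came from male C57BL/6J mice 3 days after surgery. PVBL stands for ligation of the portal vein's left branch. The right lobe, which kept its portal supply and grows after this operation, was collected from these mice as regenerating liver. Sham mice had a sham operation, and the labels' protocol gives right lobes for them as well. There were 3 samples a group, with 1 single-colour Agilent array a sample. No label ties the samples to separate animals, so each p-value sets a difference against the spread of samples that may be partly technical replicates.

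Hepatocytes export most plasma proteins, so the liver carries a heavy folding load. Chaperones such as BiP hold new chains in the ER lumen, protein disulfide isomerases form and correct their disulfide bonds, and chains that fail to fold are passed through the ER membrane to the proteasome. When unfolded proteins build up, the membrane sensors IRE1 (Ern1), PERK (Eif2ak3) and ATF6 start the unfolded protein response. IRE1 splices the Xbp1 messenger, PERK slows translation by phosphorylating eIF2alpha, and cleaved ATF6 enters the nucleus and, with spliced XBP1, raises transcription of chaperone and degradation genes. The arrays measured transcript abundance. Sensor activation, Xbp1 splicing and protein levels were not measured.

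XBP1 and ATF6 act through ER stress elements in promoters, and 4 promoters are shown because they carry such letters and belong to the genes the results turn on: the classic target Hspa5, which was not called, and Derl3, Dnajb11 and Herpud1, which were lower in PVBL. The rule for printing sequences gave Derl3 alone, and the other 3 were added after their values were seen. Each run is RefSeq sequence of build GRCm38.p6, from 250 bases before to 50 bases after the annotated start, read 5′ to 3′ on the gene's strand, which is the plus strand in all 4. Capitals mark exact matches to the ER stress element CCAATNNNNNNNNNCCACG, the shorter element ATTGGNCCACG or the unfolded protein response element TGACGTGA. The match in Derl3 is on the opposite strand, so the capitals show its reverse complement, and the others are on the gene's strand. Hspa5 lies at chr2:34771840-34772139, Derl3 at chr10:75893148-75893447, Dnajb11 at chr16:22857595-22857894 and Herpud1 at chr8:94386179-94386478.
Hspa5: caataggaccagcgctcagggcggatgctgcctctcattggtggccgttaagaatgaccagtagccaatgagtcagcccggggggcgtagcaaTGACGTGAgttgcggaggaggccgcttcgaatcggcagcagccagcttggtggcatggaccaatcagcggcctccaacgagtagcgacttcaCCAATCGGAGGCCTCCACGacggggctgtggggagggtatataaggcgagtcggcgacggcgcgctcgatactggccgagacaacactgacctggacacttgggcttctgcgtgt
Derl3: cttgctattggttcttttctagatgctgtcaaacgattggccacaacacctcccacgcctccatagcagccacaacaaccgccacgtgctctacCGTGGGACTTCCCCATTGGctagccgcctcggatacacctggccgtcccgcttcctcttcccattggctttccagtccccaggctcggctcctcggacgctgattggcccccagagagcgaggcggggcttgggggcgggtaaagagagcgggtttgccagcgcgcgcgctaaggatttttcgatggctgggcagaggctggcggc
Dnajb11: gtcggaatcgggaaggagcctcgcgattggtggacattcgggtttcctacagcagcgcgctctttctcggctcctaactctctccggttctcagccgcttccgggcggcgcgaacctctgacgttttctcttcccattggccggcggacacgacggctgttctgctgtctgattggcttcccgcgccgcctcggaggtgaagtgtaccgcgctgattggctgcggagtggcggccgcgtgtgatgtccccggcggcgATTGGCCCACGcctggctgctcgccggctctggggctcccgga
Herpud1: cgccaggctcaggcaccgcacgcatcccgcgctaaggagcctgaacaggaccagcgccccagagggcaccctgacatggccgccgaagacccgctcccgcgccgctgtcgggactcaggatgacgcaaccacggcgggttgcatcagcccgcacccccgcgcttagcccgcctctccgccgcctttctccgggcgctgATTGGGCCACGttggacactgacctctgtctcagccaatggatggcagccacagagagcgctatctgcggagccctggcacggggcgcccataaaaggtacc

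Both strands of each window were searched. Of the 32 genes 27 matched a promoter of the RefSeq table, and Hspa13, Hyou1, Manf, Derl1 and Atf6 were not among them. The ER stress element was found in 10 of these 27 genes (37.0%), against 37 of 27025 genes in the whole table (0.137%). These were Calr, Canx, Creld2, Derl3, Dnajc3, Ero1lb, Hsp90b1, Hspa5, Pdia6 and Syvn1. Its matches, given so that the spacer letters can be compared, read on the motif's own strand with the fixed letters in capitals, were as follows for 5 of the genes, chosen as the main chaperone genes and the 1 called gene. Hsp90b1 holds a pair of matches, and both are given.
Hspa5: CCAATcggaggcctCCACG
Hsp90b1, first: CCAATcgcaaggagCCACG
Hsp90b1, second: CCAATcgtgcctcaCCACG
Calr: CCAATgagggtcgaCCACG
Canx: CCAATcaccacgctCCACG
Derl3: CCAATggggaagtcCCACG
The shorter element was found in Dnajb11 and Herpud1 (7.41% of the 27 genes, against 0.0444% of all). The element TGACGTGA was in Hspa5 alone (3.70%, against 0.507% of all), and TGACGTGG was in none of the 27, against 0.714% of all. Of the 12 genes with either ER stress element, 3 were lower in PVBL, none was higher and 9 did not pass the test described next, with a median log2 difference of -0.17. Of the 15 genes with neither, 4 were higher, 1 was lower and 10 did not pass it, with a median of -0.01. Over all genes tested 15.1% were higher and 17.8% lower. Whether genes with and without an ER stress element differed was not tested.

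Most of the 32 genes gave no called difference between the livers. Levels are log2 values of the scanner's processed signal minus the array's 75th percentile, so a level of 0 is the signal of that percentile, and a difference is PVBL minus Sham. A gene was called when the adjusted p of limma, adjusted by Benjamini-Hochberg over the 13586 genes tested, was under 0.05. Of the 32 genes 4 were higher in PVBL (12.5%) and 4 were lower (12.5%), where 15.1% of all genes tested were higher and 17.8% lower. In all, 25.0% of the 32 were called, against 32.9% of all genes, so the share called was not above that of the array as a whole. The 8 called genes were Eif2ak3, Dnajb9, Dnajc10 and Ern1 on the higher side, and Derl3, Dnajb11, Derl2 and Herpud1 on the lower side.

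The sizes of the differences were small as well. Differences were positive for 11 of the 32 genes and negative for 21, with a median of -0.12, against -0.10 over all genes tested. For 25 of the 32 (78.1%) the difference lay within 0.5 of 0 on the log2 scale, against 64.1% of all genes, and for 29 (90.6%) within 1, against 87.7%. Groups did not overlap in 14 of the 32 genes, against 51.4% of all genes: in 7 genes all PVBL arrays lay above all Sham arrays (21.9%, against 22.3% of all genes) and in 7 all lay below (21.9%, against 29.1%). Among the 24 genes not called, the 95% interval of the difference stayed between -1 and 1 for 23, the lowest bound being -1.04 for Sdf2l1 and the highest 0.74 for Pdia6. Such an interval bounds the change and does not show that a level was the same.

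**Figure D1:**
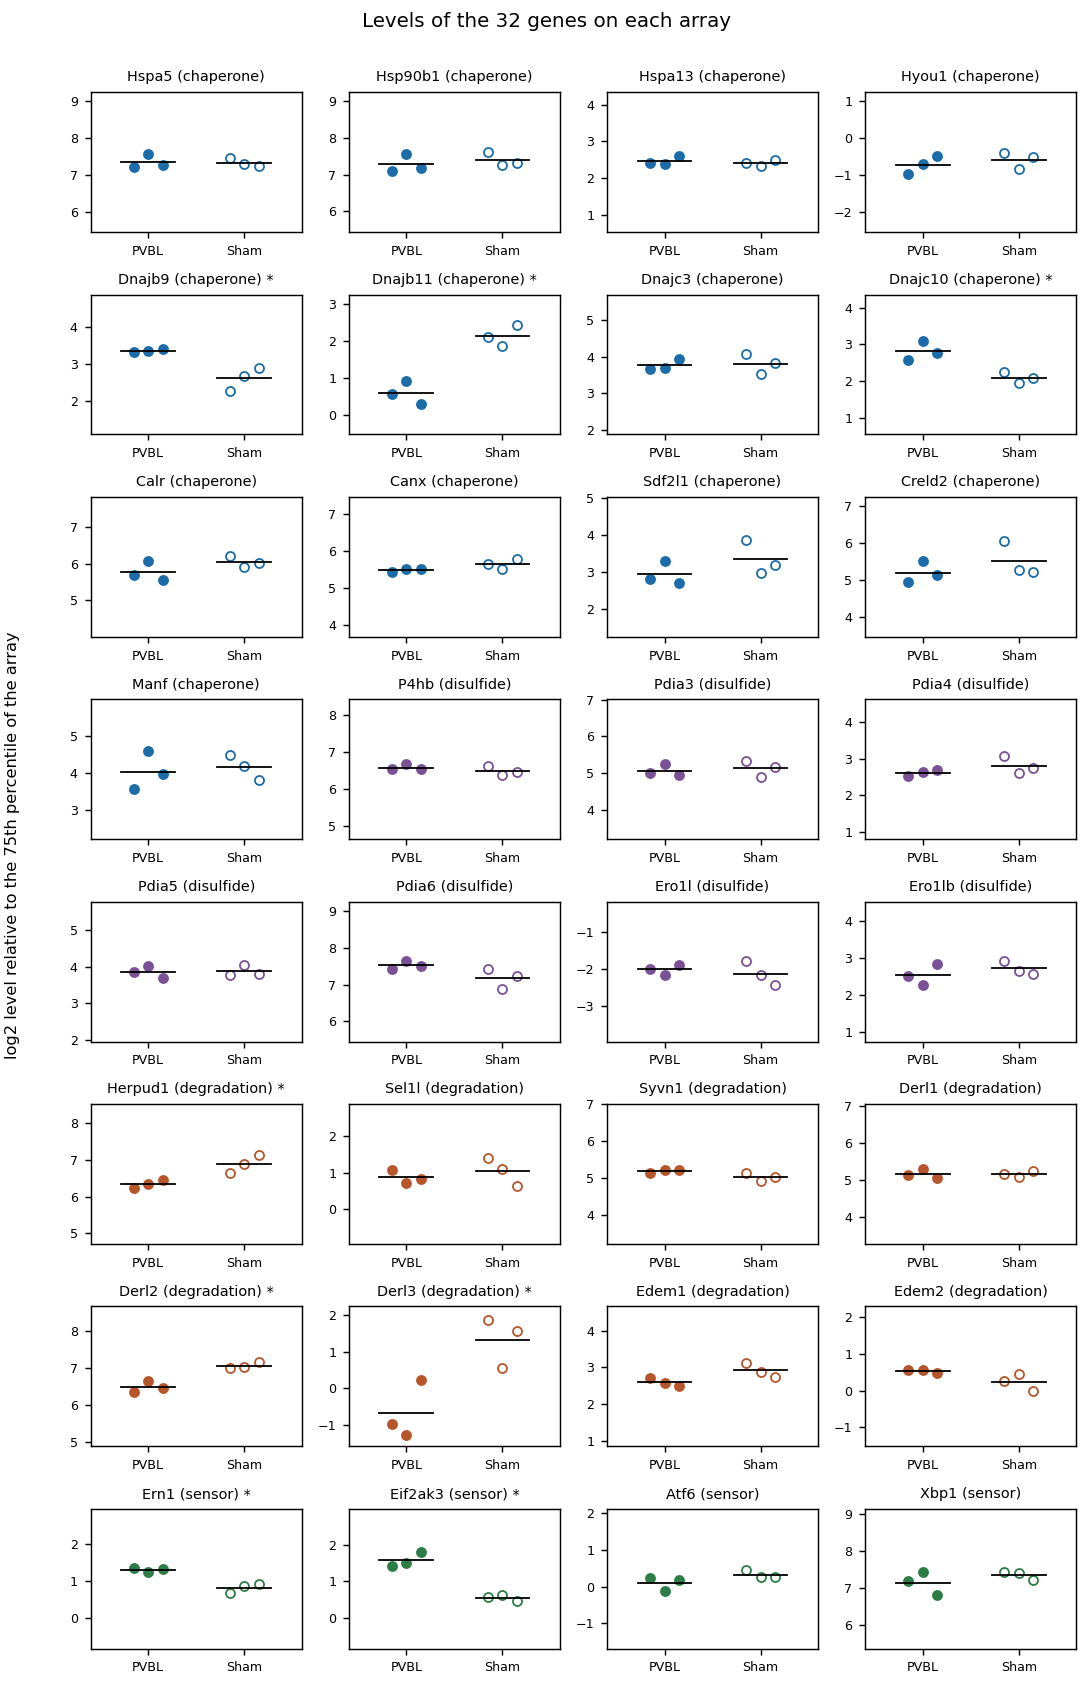
Levels of each of the 32 genes on the 6 arrays, as log2 signal relative to the array's 75th percentile. Filled points are PVBL arrays, open points Sham arrays, bars the group means (n = 3 each), colours the roles, an asterisk marks a called gene, and every panel spans the same number of log2 units. Dnajb11, Derl3 and Eif2ak3 show the widest differences between group means, while Hspa5 averaged 7.36 in PVBL and 7.33 in Sham.

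Among the sensors, the transcripts of PERK and IRE1 rose. Eif2ak3, the gene of PERK, had log2 levels of 1.42, 1.51 and 1.81 on the PVBL arrays and 0.57, 0.64 and 0.48 on the Sham arrays. All PVBL values lay above all Sham values by more than the range within either group. The mean was 1.58 ± 0.21 in PVBL and 0.56 ± 0.08 in Sham (SD, n = 3 each), a difference of 1.02 ± 0.14 (SE) or 2.03-fold (limma adjusted p = 0.00271). Eif2ak3 kept its call under all 19 alternative settings, with differences from 0.90 to 1.45.

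Ern1, the gene of IRE1, the sensor that splices Xbp1, measured 1.36, 1.23 and 1.32 in PVBL and 0.68, 0.86 and 0.91 in Sham. The groups did not overlap, and the PVBL values were the tighter of the 2 groups. Its mean was 1.30 ± 0.06 in PVBL and 0.82 ± 0.12 in Sham (SD, n = 3 each), a difference of 0.49 ± 0.12 or 1.40-fold (limma adjusted p = 0.022). The call was lost without PVBL 1 (0.46), Sham 1 (0.42) or Sham 2 (0.51), with the replicate block (adjusted p = 0.0520), with no filter on dim probes (adjusted p = 0.0559) and with scaling on spike-in probes (0.92, adjusted p = 0.138).

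Atf6, the gene of the third sensor, gave no call. It measured 0.25, -0.12 and 0.17 in PVBL and 0.46, 0.26 and 0.27 in Sham, with all PVBL values below the Sham values and PVBL 2 the lowest. The difference was -0.23 ± 0.14 (limma adjusted p = 0.253), with a 95% interval from -0.56 to 0.11. Xbp1, whose product drives ER chaperone and secretory genes, measured 7.20, 7.43 and 6.80 in PVBL and 7.43, 7.41 and 7.22 in Sham. Here the groups overlapped, and PVBL 3 was the lowest array. The difference was -0.21 ± 0.18 (limma adjusted p = 0.394), with an interval from -0.64 to 0.21. The 4 genes of this role thus held 2 higher and 2 not called, with a median of 0.14. For all genes tested the shares were 15.1% higher and 17.8% lower.

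The main lumenal chaperones showed no called difference. Hspa5 encodes BiP, the HSP70 chaperone of the ER that also keeps the sensors inactive. It measured 7.22, 7.58 and 7.28 in PVBL and 7.47, 7.29 and 7.25 in Sham, so the highest and the lowest array were both in PVBL. The difference was 0.03 ± 0.14 (limma adjusted p = 0.897), with a 95% interval from -0.31 to 0.37. Hsp90b1, the gene of GRP94, the HSP90 of the ER, measured 7.11, 7.55 and 7.18 in PVBL and 7.62, 7.26 and 7.32 in Sham. These values overlapped too, and the difference was -0.12 ± 0.17 (interval from -0.52 to 0.28). Calr and Canx encode calreticulin and calnexin, the lectin chaperones that hold glycoproteins in the folding cycle. Calr averaged 5.78 ± 0.26 in PVBL and 6.04 ± 0.16 in Sham, a difference of -0.26 ± 0.17. Canx averaged 5.48 ± 0.05 in PVBL and 5.66 ± 0.13 in Sham (SD, n = 3 each), a difference of -0.18 ± 0.12, with every PVBL array below every Sham array. Neither passed the threshold (limma adjusted p = 0.26 and 0.296).

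The co-chaperones of BiP split in direction. These J proteins hand clients to BiP and start its ATPase cycle. Dnajb9 encodes ERdj4, known as a repressor of IRE1 and a helper of degradation. Its levels were 3.32, 3.36 and 3.42 in PVBL and 2.26, 2.68 and 2.88 in Sham. The PVBL values lay close together and above all Sham values. Dnajb9 averaged 3.37 ± 0.05 in PVBL and 2.61 ± 0.32 in Sham (SD, n = 3 each), a rise of 0.76 ± 0.17 or 1.69-fold (limma adjusted p = 0.0172). Its other probe was also called higher, with a difference of 0.80, and the call held under all 19 alternative settings (0.58 to 1.19).

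Dnajc10 encodes ERdj5, a J protein with thioredoxin domains that reduces disulfide bonds of proteins bound for degradation. It measured 2.57, 3.09 and 2.77 in PVBL and 2.25, 1.95 and 2.09 in Sham, with no overlap and PVBL 2 the highest. Dnajc10 averaged 2.81 ± 0.26 in PVBL and 2.10 ± 0.15 in Sham (SD, n = 3 each), a rise of 0.71 ± 0.17 or 1.64-fold (limma adjusted p = 0.0185). Its other probe gave 1.02 and was called higher. The call was lost without Sham 2 (0.64, adjusted p = 0.0670) or Sham 3 (0.71, adjusted p = 0.0539).

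Dnajb11 encodes ERdj3, a lumenal J protein that binds unfolded chains and can be secreted with them. It measured 0.55, 0.91 and 0.29 in PVBL and 2.11, 1.87 and 2.44 in Sham. The lowest Sham array lay well above the highest PVBL array. Dnajb11 averaged 0.59 ± 0.31 in PVBL and 2.14 ± 0.29 in Sham (SD, n = 3 each), a difference of -1.55 ± 0.21, 2.93-fold lower in PVBL (limma adjusted p = 0.00248). The fall kept its call under all 19 alternative settings, with differences from -1.71 to -1.12. Dnajb11 had 1 probe. Dnajc3, the gene of p58IPK, a co-chaperone known as an inhibitor of PERK, measured 3.65, 3.70 and 3.93 in PVBL and 4.08, 3.53 and 3.82 in Sham, a difference of -0.05 ± 0.17 with overlapping groups.

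The remaining 5 chaperone genes were not called. Sdf2l1 encodes a partner of ERdj3 that keeps clients soluble. It measured 2.80, 3.29 and 2.71 in PVBL and 3.88, 2.97 and 3.18 in Sham, where Sham 1 stood above all other arrays. Its difference was -0.41 ± 0.27 (limma adjusted p = 0.271). Creld2, a known ER stress gene with EGF-like domains, also had its highest value on Sham 1 (6.05) and differed by -0.31 ± 0.26. Manf encodes a secreted ER stress protein that binds BiP. It ranged from 3.55 to 4.59 in PVBL and from 3.81 to 4.48 in Sham, a difference of -0.12 ± 0.29. Hyou1, the large HSP70 relative GRP170, which exchanges the nucleotide of BiP, differed by -0.14 ± 0.18. For Hspa13, the microsomal HSP70 relative STCH, the probe standing for the gene differed by 0.05 ± 0.12, while its dimmer probe was called higher on its own (0.64 ± 0.20, limma adjusted p = 0.0472 over all tested probes), so its probes disagreed on the call. Over the 13 chaperones and co-chaperones 2 were higher (15.4%), 1 was lower (7.7%) and 10 were not called, with a median of -0.12. Of all genes tested 15.1% were higher and 17.8% lower.

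**Figure D2:**
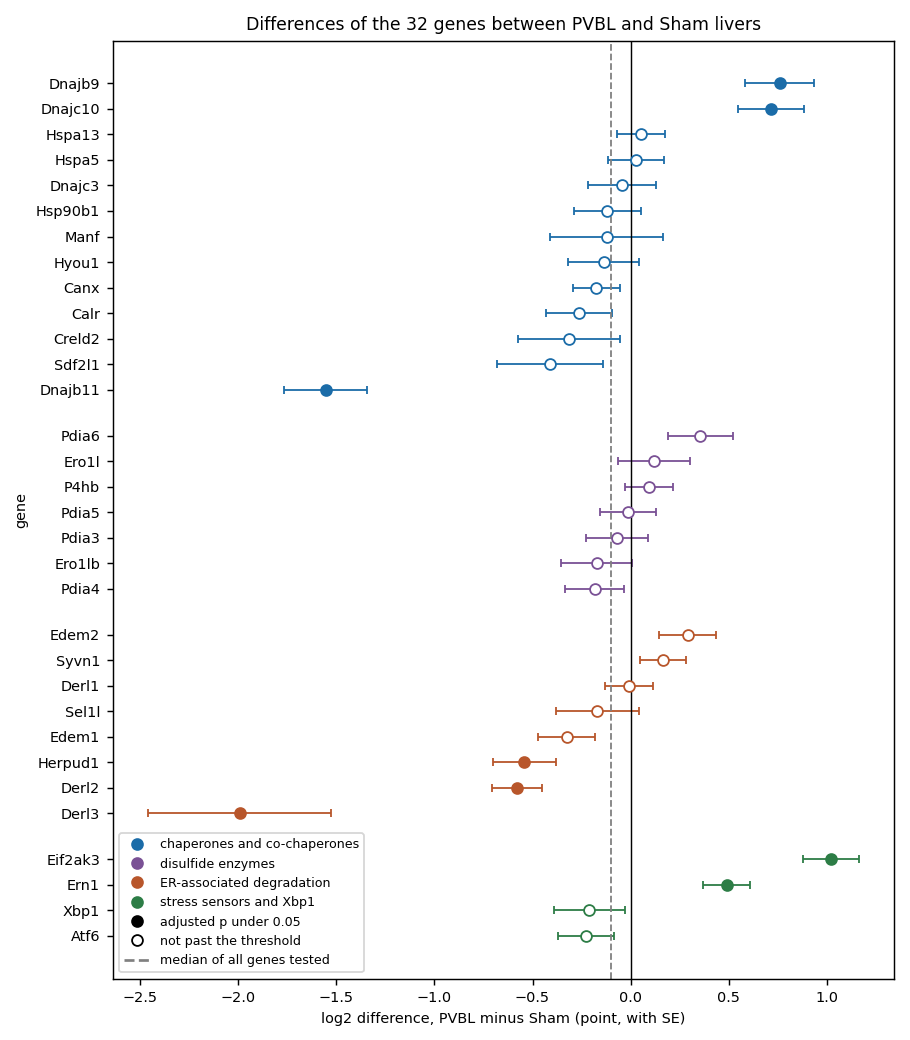
Log2 differences of the 32 genes (PVBL minus Sham) with their SE from limma, grouped by role and ordered by size within a role. Filled points passed the adjusted p threshold, open points did not, and the dashed line is the median of all genes tested at -0.10. The points of the 7 disulfide enzymes lie between -0.18 and 0.35, while Derl3 and Dnajb11 lie at -1.99 and -1.55 and Eif2ak3 at 1.02.

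None of the 7 disulfide enzymes was called by limma in either direction, where 32.9% of all genes tested were called. None of the 7 had an unadjusted p under 0.05, and their median was -0.01. P4hb, the gene of protein disulfide isomerase itself, measured 6.54, 6.67 and 6.53 in PVBL and 6.63, 6.38 and 6.46 in Sham. Its groups overlapped, with a difference of 0.09 ± 0.12 and an interval from -0.20 to 0.38. Pdia3 encodes ERp57, the isomerase that works with calnexin and calreticulin, and it differed by -0.07 ± 0.16. Pdia4 (ERp72) differed by -0.18 ± 0.15 and Pdia5, another family member, by -0.01 ± 0.14. Ero1l and Ero1lb encode the oxidases that pass electrons from the isomerases to oxygen. Ero1l differed by 0.12 ± 0.18 and Ero1lb by -0.17 ± 0.18, so no difference was called for either oxidase.

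Pdia6 came nearest to the threshold among the disulfide enzymes. It encodes P5, an isomerase that binds BiP and is known to switch off IRE1. Levels were 7.43, 7.64 and 7.52 in PVBL and 7.42, 6.88 and 7.23 in Sham, with PVBL 1 only just above Sham 1. The difference was 0.35 ± 0.16, with an interval from -0.03 to 0.74 (limma adjusted p = 0.137), and its other probe gave 0.40. With quantile scaling Pdia6 was called higher (0.60, adjusted p = 0.0289).

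In the degradation role 3 of the 8 genes fell and none rose, where 17.8% of all genes were lower, with a median of -0.25. Without PVBL 1 or Sham 3 none of the 8 was called, and with quantile or spike-in scaling 1 was. Derlins are membrane proteins that help to move misfolded proteins out of the ER, and 2 of the 3 derlin genes were lower. Derl3 measured -0.98, -1.26 and 0.23 in PVBL and 1.85, 0.55 and 1.56 in Sham. The groups did not overlap, but both were wide, and PVBL 3 lay close to Sham 2. Derl3 averaged -0.67 ± 0.79 in PVBL and 1.32 ± 0.68 in Sham (SD, n = 3 each), a fall of 1.99 ± 0.47 on the log2 scale or 3.97-fold (limma adjusted p = 0.0181), the widest difference among the 32 genes. The call was lost without PVBL 1 (-1.84), Sham 1 (-1.72) or Sham 3 (-1.87), and the difference was -2.44 without PVBL 3.

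Derl2 measured 6.35, 6.65 and 6.46 in PVBL and 7.01, 7.02 and 7.16 in Sham, with every Sham array above every PVBL array. It averaged 6.49 ± 0.15 in PVBL and 7.06 ± 0.08 in Sham (SD, n = 3 each), a difference of -0.58 ± 0.13, 1.49-fold lower in PVBL (limma adjusted p = 0.0153). Its other 2 probes gave -0.75 and -0.55, and all 3 were called lower. The call of Derl2 was lost without PVBL 1 (-0.51), Sham 1 (-0.61) or Sham 3 (-0.53), with quantile scaling (-0.33) and with spike-in scaling (-0.15). Derl1, the best studied derlin, measured 5.12, 5.28 and 5.04 in PVBL and 5.16, 5.09 and 5.23 in Sham, a difference of -0.01 ± 0.12 with an interval from -0.30 to 0.28. Whether the 3 derlin genes differed from each other was not tested.

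Herpud1 encodes HERP, a membrane protein that joins derlins to the ubiquitin ligase HRD1. It measured 6.22, 6.34 and 6.46 in PVBL and 6.63, 6.88 and 7.14 in Sham, with no overlap and a narrow gap between PVBL 3 and Sham 1. Herpud1 averaged 6.34 ± 0.12 in PVBL and 6.88 ± 0.25 in Sham (SD, n = 3 each), a difference of -0.54 ± 0.16, 1.46-fold lower in PVBL (limma adjusted p = 0.0386). Its call was lost under 9 of 18 alternative settings, the most of the 8 genes, among them without PVBL 1 (-0.48), PVBL 2 (-0.54), Sham 2 (-0.54) or Sham 3 (-0.42), and with median (-0.41), quantile (-0.30) and spike-in scaling (-0.11).

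The core of the HRD1 ligase gave no call. Syvn1, the gene of HRD1 itself, measured 5.14, 5.21 and 5.20 in PVBL and 5.12, 4.90 and 5.03 in Sham, a difference of 0.17 ± 0.12 (interval from -0.11 to 0.44) with all PVBL arrays above all Sham arrays. Sel1l, whose product steadies HRD1 and recruits its clients, differed by -0.17 ± 0.21 with overlapping groups. Edem1 and Edem2 encode mannosidase-like proteins that mark misfolded glycoproteins for removal. Their differences had opposite signs. Edem1 measured 2.70, 2.59 and 2.49 in PVBL and 3.13, 2.89 and 2.74 in Sham, a difference of -0.33 ± 0.14 (limma adjusted p = 0.121). Edem2 measured 0.56, 0.55 and 0.47 in PVBL and 0.27, 0.45 and -0.01 in Sham, a difference of 0.29 ± 0.15 (limma adjusted p = 0.162). In both the groups did not overlap.

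**Figure D3:**
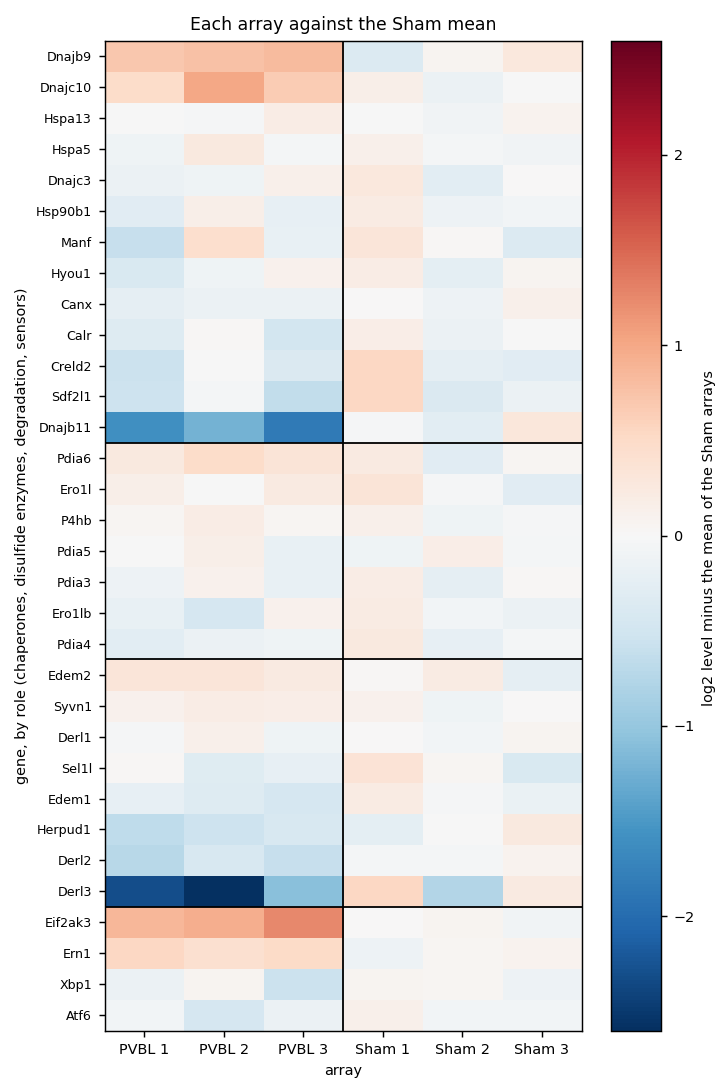
Log2 level of each of the 32 genes (rows) on each array (columns) minus the mean of the 3 Sham arrays, with red above and blue below it and black lines between roles and groups. The 3 PVBL columns are red for Dnajb9, Dnajc10, Eif2ak3 and Ern1 and blue for Dnajb11, Derl3, Derl2 and Herpud1, and many chaperone rows are redder on Sham 1 than on the other Sham arrays.

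Arrays of 1 group differed in a way that many chaperones and disulfide enzymes shared. Sham 1 was the highest Sham array in 21 of the 32 genes (65.6%, against 35.9% of all genes), among them 9 of the 13 chaperones and 6 of the 7 disulfide enzymes. PVBL 2 was the highest PVBL array in 16 of the 32 (against 41.6% of all genes), including 8 chaperones and 4 disulfide enzymes. Relative to the Sham mean of each gene, the chaperone median was -0.29, -0.01 and -0.14 on PVBL 1 to 3 and 0.16, -0.15 and -0.01 on Sham 1 to 3. The degradation genes had medians of -0.13, -0.33 and -0.32 on PVBL 1 to 3 and 0.07, -0.04 and 0.04 on Sham 1 to 3. The sensor genes and Xbp1 had medians of 0.23, 0.25 and 0.17 on the PVBL arrays and 0.04, 0.05 and -0.07 on the Sham arrays. Without Sham 1 the median difference of the 32 genes was -0.0094, and 3 were called higher and 2 lower. These counts describe the arrays, since the genes of a list are not independent of each other.

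Signs of small differences depended on how the arrays were scaled, and the median of all genes moved with the scaling. That median was -0.10 with the 75th percentile, 0.03 with the array median and 0.33 with spike-in probes, RNAs of known amount added to each sample. All 8 called genes kept their sign under each of these and under quantile scaling. With spike-in scaling 28 of the 32 genes had positive differences, 3 were called higher (Dnajb9, Dnajc10 and Eif2ak3) and 2 lower (Dnajb11 and Derl3), where 11.5% of all genes were called higher and 1.35% lower. Derl2 and Herpud1 then differed by -0.15 and -0.11.

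**Figure D4:**
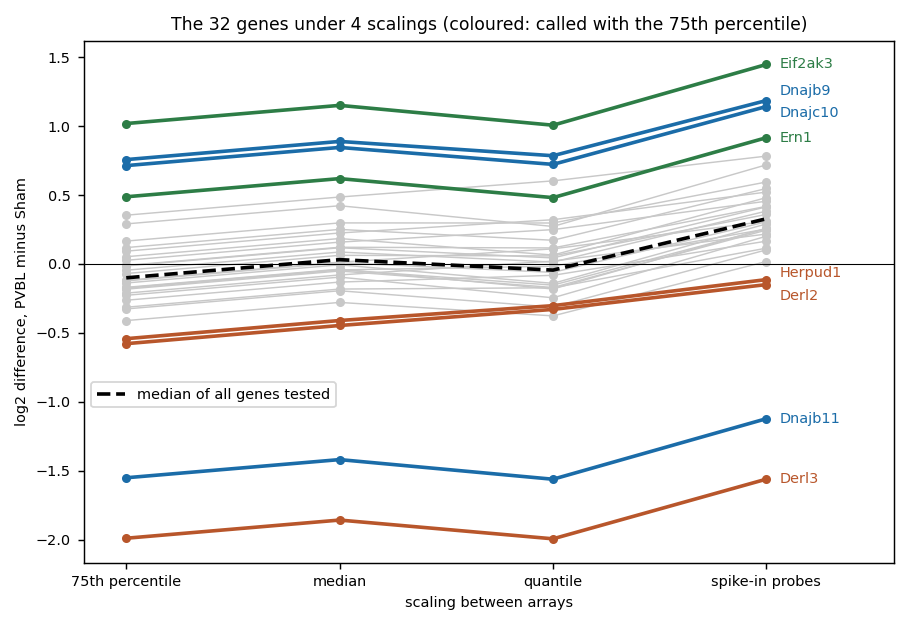
Log2 differences (PVBL minus Sham) of the 32 genes under 4 scalings between arrays. Lines join the values of a gene, coloured and named where the gene was called with the 75th percentile, and the dashed line is the median of all genes tested, which lies between -0.10 and 0.33. Eif2ak3 stays on top (1.01 to 1.45) and Derl3 at the bottom, and Herpud1 and Derl2 approach 0 with spike-in scaling.

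Downstream of PERK, a list of 10 genes of the ATF4 branch held 1 higher (10%), 1 lower (10%) and 8 not called. Of all genes tested 15.1% were higher and 17.8% lower. The list's median was -0.23 and turned to 0.20 with spike-in scaling. Without PVBL 3 the list held 1 higher and 4 lower. Eif2s1, the gene of the eIF2alpha subunit that PERK phosphorylates, averaged 3.96 ± 0.21 in PVBL and 3.26 ± 0.24 in Sham (SD, n = 3 each), 1.62-fold higher (limma adjusted p = 0.0227). Its call was lost without PVBL 2, Sham 2 or Sham 3 and with no filter on dim probes. With the mean over its probes the difference was 0.47, against 0.69 for the probe standing for it. Trib3, a target of ATF4 and CHOP that dampens Akt signalling, averaged 3.28 ± 0.33 in PVBL and 4.40 ± 0.11 in Sham, 2.17-fold lower (limma adjusted p = 0.00498). Its call was lost with spike-in scaling (-0.69) alone. Atf4 itself differed by -0.42 ± 0.18 and Ddit3, the gene of CHOP, by 0.33 ± 0.12, and neither was called (limma adjusted p = 0.115 and 0.0763). The ATF4 targets Chac1 (-1.52 ± 0.54) and Asns (1.50 ± 0.57) had wide differences of opposite sign and missed the threshold, but each was called in 4 of 18 alternative settings, among them without Sham 2 or PVBL 3 for Chac1 and without Sham 3 for Asns. Atf4 was called lower without PVBL 3 and with array weights, and Ddit3 higher with median scaling. These 4 genes were named after their values were seen.

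Among 12 genes of ATF6 processing and other ER-membrane factors 3 were higher (25%) and none lower (median 0.12). The shares over all genes tested were 15.1% higher and 17.8% lower. Creb3l2, a membrane-bound transcription factor cleaved like ATF6, differed by 1.67 ± 0.13 (SE), 3.17-fold higher (limma adjusted p = 0.000206). Mbtps2, the site-2 protease that cuts ATF6, was higher by 0.59 and Traf2, an adaptor that binds active IRE1, by 0.62 on the log2 scale. Creb3l2 kept its call under all 19 alternative settings, with a difference of 0.99 under normexp. Mbtps2 lost its call without PVBL 1 or Sham 1, with spike-in scaling and with normexp (0.27), and Traf2 without Sham 1 or Sham 2, with spike-in scaling and with no filter on dim probes. Without Sham 1 the list held 1 higher gene.

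In 3 lists, of translocation, glycosylation and other folding factors, no gene was called lower, where 17.8% of all genes were lower and 15.1% higher. Under alternative settings the other folding factors held 2 lower calls with array weights and 1 with the mean over probes. The authors' value table, whose rows separate the groups, gave 2 lower there and 1 in translocation. Of 23 genes of translocation and signal peptidase, which bring chains into the ER, 3 were higher and none lower (median 0.17). Srprb, a subunit of the signal recognition particle receptor, was 1.91-fold, Ssr1 of the translocon-associated complex 1.51-fold and Sec61a1, the pore itself, 1.35-fold higher. Of 20 genes of N-glycosylation and glucose trimming 7 were higher (35.0%) and none lower (median 0.36). Pgm3, of UDP-N-acetylglucosamine synthesis, was 2.59-fold, Alg2, a mannosyltransferase of the lipid-linked precursor, 2.14-fold and Tusc3, an oligosaccharyltransferase subunit, 1.70-fold higher. Of 22 tested genes among 24 other lumenal folding factors 8 were higher (36.4%) and none lower (median 0.25). Fkbp11 and Ppic, both prolyl isomerases, were 2.17-fold and 2.06-fold higher, and Calu, the calcium-binding calumenin, 1.87-fold higher. Srprb, Pgm3, Alg2, Tusc3, Fkbp11 and Calu kept their calls under all 19 alternative settings. Pgm3 differed by 0.64 on the log2 scale with the mean over its probes, against 1.37 for the probe standing for it. Srprb likewise differed by 0.54 with the mean over its probes, against 0.93. Ppic lost its call without Sham 1. Ssr1 lost it without Sham 1 or Sham 2, with spike-in scaling and with the mean over its probes (0.09, against 0.59). Sec61a1 lost it under 8 of 18 settings, including any 1 array left out but PVBL 3. With any 1 array left out, 1 to 4 genes were higher in translocation (1 without Sham 1 or Sham 2), 5 to 9 in glycosylation and 4 to 7 in the other folding factors (4 without PVBL 1, Sham 1 or Sham 3). With spike-in scaling 1, 3 and 5 genes of these lists were higher, where 11.5% of all genes were higher and 1.35% lower. With median scaling 7, 11 and 9 were higher, but the median of all genes also rose with that scaling.

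Of 20 other degradation genes 2 were higher (10%) and 4 lower (20%), near the 15.1% and 17.8% over all genes tested. The list's median was -0.12, but above 0 with median, quantile and spike-in scaling. Ube2g2 and Ube2j1, ubiquitin-conjugating enzymes of the ER, were 1.40-fold and 1.34-fold higher. With the mean over their probes both lost the call, at 0.06 and 0.29 on the log2 scale, and they lost it under 8 of 18 and 9 of 19 settings in all. Os9 and Erlec1, lectins that deliver glycoproteins to HRD1, were 1.51-fold and 1.57-fold lower, Herpud2, the relative of Herpud1, 1.52-fold lower and Aup1, a partner of the ligases, 1.33-fold lower. None of these 6 was called with spike-in scaling, where Aup1 turned to 0.02. Aup1 lost its call under 9 further settings of 19. Counting spike-in scaling, Os9 lost its call under 5, Erlec1 under 3 and Herpud2 under 1 of 19. Without Sham 1 or Sham 2 the list held 1 lower and no higher call each, and without PVBL 1 or PVBL 2 no higher call either. Of 24 genes of ER export and retrieval 3 were higher and 2 lower (median 0.17). Kdelr3, a receptor that returns escaped ER proteins, rose above background on a single Sham array and was higher by 1.95 on the log2 scale (3.86-fold), but by 0.68 with normexp background correction. Sec13 and Sec22b, of vesicle coats and fusion, were 1.48-fold and 1.36-fold higher, and Sec24a and Sar1b, of the COPII coat, 1.58-fold and 1.38-fold lower. Without any 1 array but PVBL 3, Sec13 and Sec22b lost their calls and the list held 1 higher gene. Sar1b lost its call under 9 of 19 settings, and differed by -0.03 with spike-in scaling. Sec24a lost its call with spike-in scaling and with the mean over its probes (-0.32, against -0.66). Over the 7 lists 27 of 131 tested genes were higher and 7 lower, against 13 and none with spike-in scaling and 13 and 3 without Sham 1. With spike-in scaling 11.5% of all genes were higher and 1.35% lower.

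**Figure D5:**
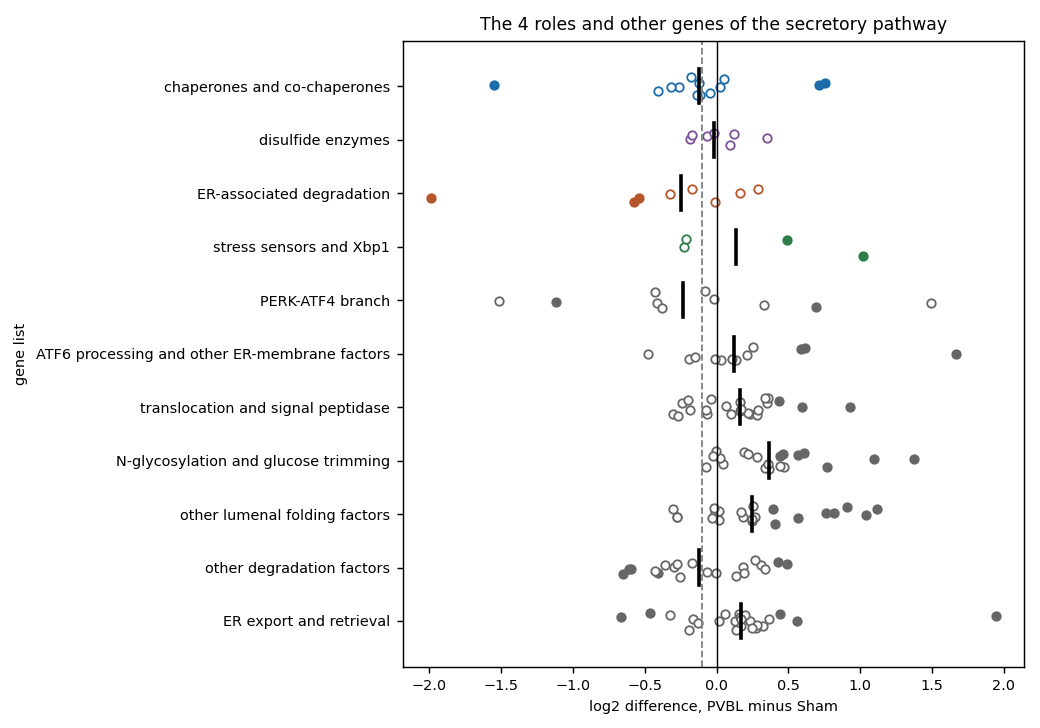
Log2 differences (PVBL minus Sham) of the genes of the 4 roles (coloured) and of 7 other lists of the secretory pathway (grey), 1 point a gene. Filled points passed the adjusted p threshold, black bars are list medians and the dashed line is the median of all genes at -0.10. The glycosylation list has a median of 0.36 with 7 of 20 genes called higher, and the degradation role a median of -0.25 with 3 of 8 called lower.

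Marker transcripts of several cell types differed between the groups. Over all genes tested 15.1% were higher and 17.8% lower. The share called lower was 20% among hepatocyte markers and among sinusoidal endothelial markers, near that of all genes. Yet all 10 differences were negative in each of these lists. Their medians were -0.33 and -0.57, against -0.10 over all genes tested. In bulk tissue, fewer cells of a type and less RNA per cell cannot be told apart. All 10 markers of dividing cells were higher in PVBL, with a summed signal of 118 to 182 times the 75th percentile in PVBL and 1.60 to 1.91 times in Sham. Of 10 hepatocyte markers none was higher and 2 were lower, with sums of 4825 to 6057 in PVBL and 6607 to 7107 in Sham. Of 10 markers of sinusoidal endothelium none was higher and 2 were lower (49.1 to 74.4 in PVBL, 110 to 117 in Sham), and of 7 tested biliary markers 4 were higher and 1 lower (8.27 to 23.5 in PVBL, 2.89 to 5.64 in Sham). The sum of the 10 B and plasma cell markers was 8.98 to 10.5 in PVBL and 5.21 to 5.73 in Sham, with 1 of 8 tested markers higher (Blnk) and 2 lower. Of these 8 markers 7 had negative differences, with a median of -0.50, so most went against the direction of the sum. Plasma cells and pancreatic acinar cells both carry much of this machinery. Of 10 acinar markers Cpa1, Cpb1, Pnlip, Cela3b, Prss2 and Pnliprp1 were not above background on any array, and the sum was 7.60 to 9.78 in PVBL and 9.62 to 10.6 in Sham. Among the 4 acinar markers tested 1 was lower and none higher. Of their differences 3 were negative and 1 positive, with a median of -0.31. The sums overlapped for T and NK cells (40.8 to 75.7 in PVBL, 65.7 to 85.8 in Sham), where 3 of 8 tested markers were lower and none higher, and for stellate cells, where 4 of 10 were higher and 1 lower. They also overlapped for neutrophils (none of 5 tested markers called by limma, and none with an unadjusted p under 0.05) and for Kupffer cells and macrophages (1 of 9 higher), where PVBL 3 stood highest at 297. The part of these cell types in the differences above was not tested.

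The arrays differed in brightness. The signal at the 75th percentile was 331 to 407 units on the PVBL arrays and 203 to 315 units on the Sham arrays. Correlations over the tested genes were 0.982 to 0.992 within PVBL, 0.991 to 0.996 within Sham and 0.948 to 0.960 between groups. The slide and the scan were common to the 6 arrays, with PVBL in row 2 and Sham in row 1, and the row cannot be told apart from the surgery.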

How the data were processed

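RNA of 3 PVBL and 3 Sham livers was measured on single-colour arrays, and groups come from the labels' source names. The deposited scanner files hold an intensity for each spot. Per the file headers, Agilent Feature Extraction 10.7.3.1 wrote them for a design annotated on mm9, while the submitters' processing notes name version 9.1. The processed signal was already background-corrected per the file headers. The deposited value table holds log2 values centred on each probe's median. All of its 7850 rows separate the groups (100%), and 6 of the 32 genes are in it, so it served only as an alternative.

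Control spots (3671) and outlier spots (115 to 201 per array) were left out, spots of a probe averaged, log2 taken and each array's 75th percentile subtracted. A probe was tested if all 3 arrays of PVBL, or all 3 of Sham, had it well above background (27914 of 55681). RefSeq accessions named 26413 probes (47.4%) through a RefSeq gene table (GRCm38.p6), used for names and promoters, and the brightest tested probe stood for a gene (13586 genes). Different probes of a gene were not compared in level. The genes Ero1l and Ero1lb are named Ero1a and Ero1b in that table. limma 3.58.1 in R 4.3.3 (lmFit, eBayes, two-sided) compared the groups, with Benjamini-Hochberg adjustment calling an adjusted p under 0.05. The SE given is limma's moderated error, SD values are over 3 arrays, and intervals are at 95%. The number of arrays limits how precise these values are. The procedure was tested on simulated data.

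The 32 genes, the other lists and the markers were chosen with earlier results of these data known. All 32 genes are named, up to 3 called genes per direction of each other list, and a few others after their values were seen (Aup1, Atf4, Ddit3, Chac1, Asns, Blnk and the dim acinar markers). Alternatives covered background correction (normexp on the median signal, offset 50), scaling (spike-in scaling used 262 spots), filter, probes, array weights, replicate block, and each array left out. Protein sequences were not analysed here.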

Additional observations from a re-analysis of the deposited data

How the results depend on the processing

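Over the 32 genes and 18 or 19 settings each, 25 of 582 values lost a call, 1 gained one (Pdia6 with quantile scaling) and 0 changed sign where a call stood in either fit. The sign was the other one in 52 values, all of genes not called, 17 of them with spike-in scaling. Eif2ak3, Dnajb9 and Dnajb11 kept their calls throughout. With median scaling 1559 of all genes were lower. With quantile scaling 2 of the 32 were lower (median 0.017). With spike-in scaling 2 were lower, the median was 0.31, and 1753 of all genes were called, 184 of them lower. With no filter on dim probes 1582 of all genes were lower. The authors' value table gave 2 lower and a median of 0.59 over 6 of the 32 genes, whose rows had been chosen on the group difference. With 1 array left out, 2 to 4 of the 32 were higher and 1 to 4 lower, and 2404 to 4777 of all genes were called, 1327 to 2206 higher and 1077 to 2571 lower. The counts for the 32 were 3 higher and 1 lower without PVBL 1, 3 and 2 without Sham 1, 2 and 3 without Sham 2, and 3 and 1 without Sham 3. With the replicate block 3 of the 32 were higher and 4 lower, and 3803 of all genes were called. Deviations of same-numbered arrays correlated at 0.17, -0.06 and 0.18, and PVBL 1 and PVBL 2 correlated best with another number. With 3 arrays a group these weak correlations cannot show whether the numbers pair the samples, and the labels do not say. Of 541 values of the 29 genes named from the other lists, 88 lost a call and 11 gained one, and 2 changed sign with spike-in scaling (Aup1 to 0.022, called lower with the 75th percentile, and Atf4 to 0.013, not called). Over those lists 13 genes were higher and 0 lower with spike-in scaling, and 44 and 4 with median scaling. The causes were not tested.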
